A study of Mus musculus with 8 samples.

Results

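The histone modifying enzyme families described here are 63 of the 19688 genes in a table of expression from mouse blastocysts. They are the rows whose symbol begins with Hdac, Sirt, Kat, Kmt, Setd, Ezh, Prmt or Kdm followed by a digit, a pattern that 68 rows matched. Kdm5c, Kdm5d, Kdm6a and a pair of rows named as pseudogenes, Kat2b-ps and Kat6b-ps2, were left out. By family there were 10 Hdac, 7 Sirt, 7 Kat, 5 Kmt, 9 Setd, 2 Ezh, 7 Prmt and 16 Kdm genes. Of the 63, 50 reached 1 FPKM (fragments scaled to the length of the transcript and to the size of the library) in at least 2 libraries and were tested. Hdac10 reached 1 FPKM only in vitrified and Kdm4b only in melatonin libraries, so the filter itself favoured that order for them. Ezh1, Setd4 and Kdm1b reached 1 FPKM in vitrified and melatonin libraries but in no fresh library, so for them the filter favoured low fresh values.

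Many enzymes of these families add or remove acetyl and methyl groups on the tails of histones, the proteins that package DNA. Several members have other substrates, and Kdm4dl, a pseudogene, and Kdm6bos, an antisense RNA, are members by name only. Acetyltransferases (Kat) mark open chromatin, while deacetylases (Hdac, and the NAD-dependent sirtuins, Sirt) remove the mark. Lysine methyltransferases (Kmt, Setd, Ezh) write methyl marks that accompany active or silent genes, demethylases (Kdm) erase them, and Prmt enzymes methylate arginine. In the preimplantation embryo these marks are reset after fertilization and come to differ between the trophectoderm, the outer layer, and the inner cell mass.

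The 8 libraries came from blastocysts in 3 groups. Fresh blastocysts, the control, gave 2 libraries, and vitrified and thawed blastocysts gave 3. Another 3 came from blastocysts whose vitrification and thawing media held 1e-10 M melatonin, a hormone with antioxidant activity. The labels used here give no strain or age of the mice. The labels number the libraries as biosamples but name no animal, embryo pool or culture as their source. A p-value here therefore speaks only of how these samples vary, which may be technical.

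The files bear on how far small differences can be read. The libraries held an estimated 5825000 to 9930000 fragments, and 1 FPKM of a 2 kb transcript stood for 11.7 to 19.9 of them. Genes above 0 FPKM numbered 15749 to 16400 in vitrified, 14260 and 14741 in fresh and 14544 to 14889 in melatonin libraries. All 7 trophectoderm and all 5 primitive endoderm markers passed the expression filter, as did 5 of 6 epiblast markers. Markers of other cells were only partly listed: 2 of 8 for cumulus and granulosa cells, 3 of 4 for sperm, 1 of 4 for blood and 2 of 4 for fibroblasts. None of those listed passed, with sums of up to 1.74 FPKM for sperm and 1.34 for blood in vitrified libraries. The markers that were not listed could not be checked. The summed level of the 6 epiblast markers was 19.1 and 48.8 FPKM in the fresh libraries, 80.7 to 97.3 in the vitrified and 78.3 to 92.6 in the melatonin libraries. That of the 5 primitive endoderm markers was 19.4 and 45.7 FPKM in fresh, 46.6 to 57.8 in vitrified and 27.8 to 37.3 in melatonin libraries, so that the vitrified libraries stood on top. The sum of 2 Y-linked transcripts was 0 in vitrified replicates 2 and 3 and at least 20.1 FPKM in the other 6 libraries. Fewer cells of a type and less RNA per cell cannot be told apart in these samples.

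The families differed widely in level. On the FPKM scale, which is per transcript length, the arginine methyltransferases had the highest summed level with 80.3 ± 8.63 FPKM (SD, n = 2) in fresh, 83.2 ± 6.62 (SD, n = 3) in vitrified and 91.2 ± 8.60 (SD, n = 3) in melatonin blastocysts. The deacetylases followed with 51.2 ± 7.10, 82.4 ± 3.87 and 62.9 ± 5.92 FPKM. The Ezh and Kmt families had the lowest sums in fresh blastocysts, 4.79 ± 1.74 and 4.16 ± 2.49 FPKM. All 3 groups had the same leading enzymes: Hdac2, Prmt5, Prmt3, Prmt7, Hdac1, Kat7 and Setd8 each had a mean above 10 FPKM in every group. At the other end, Hdac5, Hdac7, Hdac11, Setd7 and the pseudogene Kdm4dl had group means of at most 0.182 FPKM.

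**Figure D1:**
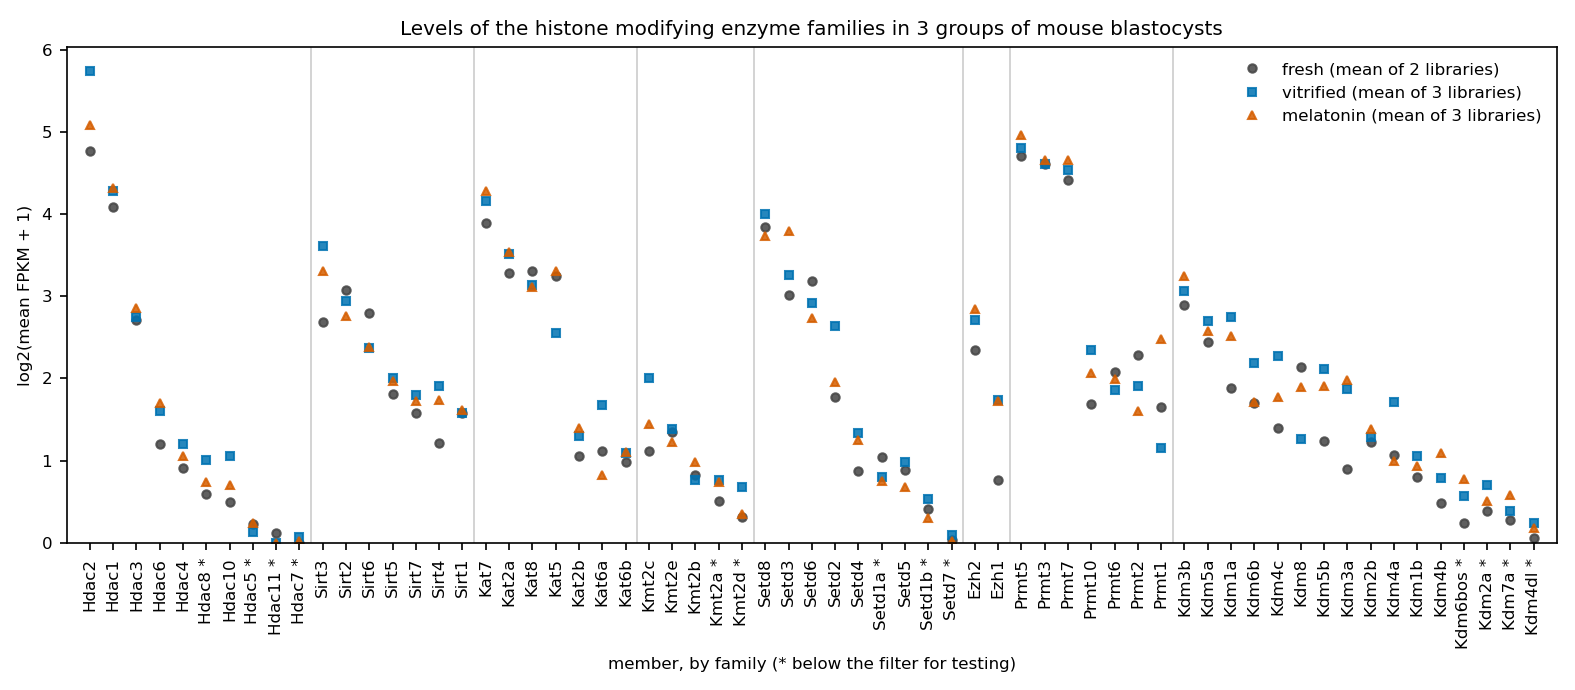
Mean level of each of the 63 members on a log2(mean FPKM + 1) axis, by family, with 1 point for each group of libraries (fresh n = 2, vitrified n = 3, melatonin n = 3); an asterisk marks the 13 members below the filter. Hdac2 stands highest, at 52.6 FPKM in vitrified blastocysts, and Prmt5, Prmt3 and Prmt7 follow.

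The comparison of vitrified with fresh blastocysts asked what freezing and thawing do to these transcripts. With limma on log2(FPKM + 1) and Benjamini-Hochberg adjustment over 10755 genes, 1 member, Hdac2, rose after vitrification at an adjusted p below 0.05, where 0.762% of all tested genes did. No member fell, while 0.102% of all genes did. At an unadjusted p below 0.05, 13 of 50 members were higher in vitrified blastocysts (26%), against 15.6% of all genes, and 0 were lower, against 4.56%. The libraries of the groups did not overlap for 20 members that were higher (40% of members, 26.4% of all genes) and for 2 that were lower (4%, against 10.6%), Setd6 and Sirt6. The median log2 fold change over the 50 members was 0.24, beside 0.14 over all tested genes, and 40 of 50 members (80%) against 63.5% of genes were above 0. With quantile normalization 28 members were above 0 and with median ratio scaling 32, as these scalings take the median of all genes close to 0.

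Fresh replicate 1 was the lowest of the 8 libraries for 27 of 50 members (54%), against 33% of all genes. Without it, 6 members (Ezh1, Hdac2, Hdac10, Kdm1a, Kdm3a and Kdm5b) were higher in vitrified blastocysts at an unadjusted p below 0.05, against 11.1% of all genes, and 2 (Kat5 and Kdm8, or 4%) were lower, against 5.51%. A covariate for the presence of Y-linked transcripts could be estimated only within the vitrified group, because only vitrified replicates 2 and 3 lacked them. With it, vitrified replicate 1 alone was set against the fresh libraries, and Hdac2 was at 1.07.

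Melatonin-treated blastocysts were compared with vitrified ones to ask what the hormone changes during vitrification, and with fresh ones to ask what distance to the control remains. No member passed the adjusted threshold between melatonin and vitrified blastocysts, where 0.0279% of all genes were higher and 0.112% lower. At an unadjusted p below 0.05, 1 member was higher (Setd3, against 4.59% of all genes) and 4 were lower (Hdac2, Kat6a, Kdm4a and Setd2, or 8%, against 10.2%). The libraries did not overlap for 2 higher members, Kdm4b and Setd3 (9.3% of all genes), and for 8 lower members (16%, against 15.4%). The median log2 fold change was -0.05 over members and -0.05 over all genes.

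Between melatonin and fresh blastocysts, no member and no other gene passed the adjusted threshold (0% higher and 0% lower). At an unadjusted p below 0.05, 7 members were higher (Ezh1, Ezh2, Kdm1a, Kdm3a, Kdm4b, Kdm5b and Setd3, or 14%, against 11.6% of all genes) and 0 were lower, against 6.82%. Libraries did not overlap for 12 higher members (24%, against 20.8%) and 3 lower ones, Kat8, Setd6 and Sirt6 (6%, against 13.5%). The median log2 fold change was 0.21 over members and 0.09 over all genes (0.08 and 0.01 without fresh replicate 1). The 3 comparisons share libraries pairwise, so their values for a gene are not independent of each other.

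The families were compared by the median log2 fold change of their tested members, as a description without a test. From fresh to vitrified blastocysts the medians were 0.69 for Ezh (2 genes), 0.46 for Kdm (12), 0.35 for Hdac (6), 0.21 for Kat (7), 0.21 for Setd (6), 0.20 for Sirt (7), 0.05 for Kmt (3) and -0.00 for Prmt (7). With quantile normalization Ezh (0.46), Kdm (0.24) and Hdac (0.12) remained the highest, while Sirt (-0.05), Kat (-0.05), Kmt (-0.20) and Prmt (-0.08) were below 0. Setd was at 0.05, and all genes at -0.02. Without fresh replicate 1 the medians were 0.44 for Ezh, 0.35 for Hdac, 0.32 for Sirt, 0.24 for Setd, 0.14 for Kdm, 0.01 for Kat, -0.05 for Prmt and -0.15 for Kmt, beside 0.07 for all genes, so that the order of the families depended on that library.

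From vitrified to melatonin blastocysts the family medians lay closer together, from -0.24 for Setd, -0.18 for Kmt, -0.16 for Kdm and -0.15 for Sirt to 0.01 for Kat, 0.04 for Ezh and 0.12 for Prmt, with Hdac at -0.06. Against fresh, melatonin gave 0.73 for Ezh, 0.27 for Kdm, 0.24 for Prmt, 0.22 for Hdac, 0.21 for Kmt, 0.14 for Kat, 0.05 for Setd and 0.05 for Sirt. Quantile normalization turned the sign for Hdac (0.01) in the first of these comparisons and for Setd (-0.07) and Sirt (-0.09) in the second. Without fresh replicate 1 the medians of melatonin against fresh were 0.48 for Ezh, 0.32 for Hdac, 0.15 for Sirt and 0.07 for Kdm. Setd was then at 0.04 and Prmt at 0.02, while Kat (-0.15) and Kmt (-0.23) changed sign, beside 0.01 for all genes.

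**Figure D2:**
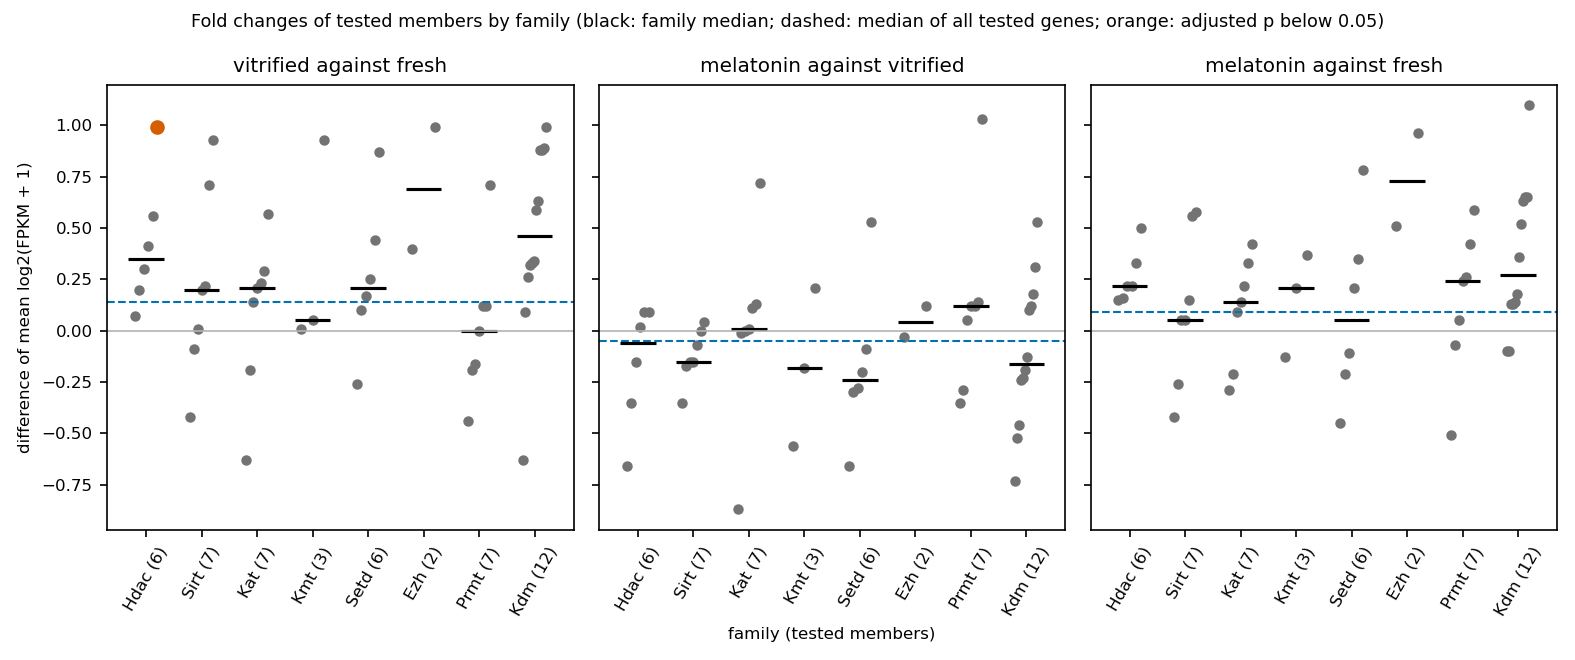
Difference of mean log2(FPKM + 1) for each tested member (grey points) by family in the 3 comparisons, with the family median (black bar), the median of all 10755 tested genes (dashed line) and the 1 member with an adjusted p below 0.05 (orange). After vitrification, family medians range from -0.00 for Prmt to 0.69 for Ezh, and Hdac2 is at 0.99.

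Among the class I deacetylases, Hdac2 (ENSMUSG00000019777), which with HDAC1 forms the core of the Sin3, NuRD and CoREST repressor complexes, was the member that rose. Hdac2 was listed at 30.5 and 22.0 FPKM in the fresh libraries, at 55.7, 49.5 and 52.6 in the vitrified and at 28.8, 36.3 and 33.7 in the melatonin libraries. The vitrified libraries all lay above the other 5, whereas fresh and melatonin libraries overlapped. The group means were 26.3 ± 6.00 FPKM (SD, n = 2) for fresh and 52.6 ± 3.09 (SD, n = 3) for vitrified blastocysts. On the log2(FPKM + 1) scale Hdac2 rose by 0.99 ± 0.18 (SE; limma, adjusted p = 0.0477). With melatonin the mean was 32.9 ± 3.84 FPKM (SD, n = 3), at -0.66 ± 0.16 from vitrified (adjusted p = 0.159) and 0.33 ± 0.18 from fresh (adjusted p = 0.367, and 0.55 or 0.10 without fresh replicate 1 or 2). The call lay close to the threshold: it was lost in 16 of 18 other settings, among them the removal of any single library, with log2 fold changes between 0.76 and 1.22 and adjusted p between 0.0418 and 0.177.

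Hdac2 lies on chromosome 10 at 36974544 to 37001889 on the plus strand (GRCm38, mm10), and its exons overlap those of no other annotated gene. Its promoter, the 250 bases before the RefSeq start (GRCm38.p6, chr10:36974294-36974543, plus strand), is shown because Hdac2 is the member whose level the comparison called. Capitals mark the GGGCGG motif known as a GC box, here on the opposite strand.
Hdac2: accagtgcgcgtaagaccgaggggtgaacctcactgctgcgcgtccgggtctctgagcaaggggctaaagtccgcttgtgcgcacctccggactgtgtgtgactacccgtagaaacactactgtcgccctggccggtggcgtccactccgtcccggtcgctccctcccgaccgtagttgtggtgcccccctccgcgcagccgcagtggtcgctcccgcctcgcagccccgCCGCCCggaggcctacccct
The window held 27 CpG dinucleotides. RefSeq promoters were matched for 47 members (63 promoters), with a median of 17 CpG in 250 bases, against 6 over all 32851 promoters. Searched on both strands, GGGCGG stood in 58.7% of member promoters and 32.7% of all. CCAAT stood in 42.9% and 33.8%, CCGGAAG in 12.7% and 6.91%, CACGTG in 7.94% and 6.02%, and TATAAA in 3.17% and 12.4%. All promoters include those of genes below the filter, and shares over tested genes alone were not taken. These are matches of letters and describe no binding.

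Hdac1, the paralog with which HDAC2 shares its complexes, varied less. It was listed at 15.6 and 16.4 FPKM in fresh, at 18.9, 19.0 and 17.6 in vitrified and at 20.4, 19.3 and 16.9 in melatonin libraries. Both fresh libraries lay below all others, and the log2 fold changes against fresh were 0.20 ± 0.16 (adjusted p = 0.515) after vitrification and 0.22 ± 0.16 (adjusted p = 0.476) with melatonin. The ratio of Hdac2 to Hdac1 was 1.96 and 1.34 in the fresh, 2.95, 2.61 and 2.98 in the vitrified and 1.41, 1.88 and 1.99 in the melatonin libraries. The vitrified ratios lay above the other 5, with exact two-sided permutation p of 0.2 against fresh and 0.1 against melatonin. These are the smallest values that this test (the smaller tail doubled) allows with 2 against 3 and 3 against 3 libraries, and over the 30 tests of 10 pairs in 3 comparisons both were 0.5 after adjustment.

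The remaining deacetylases were expressed at lower levels. Hdac3, the enzyme of the NCoR complex, ranged from 3.65 to 9.01 FPKM over the 8 libraries, and its groups overlapped. Hdac6, a cytosolic tubulin deacetylase encoded on the X chromosome, was listed at 0.957 and 1.65 FPKM in fresh, 1.79, 2.14 and 2.16 in vitrified and 2.61, 2.54 and 1.62 in melatonin libraries. Its log2 fold change from fresh to melatonin was 0.50 ± 0.24 (adjusted p = 0.304), and 0.28 without fresh replicate 1. Hdac10, a polyamine deacetylase, stood highest in the vitrified libraries (0.850, 1.09 and 1.29 FPKM). It was at 0.551 and 0.263 in fresh and at 0.792, 0.494 and 0.606 in melatonin libraries, and passed the test in no comparison. It met the filter only through vitrified libraries. After vitrification the median log2 fold change of the 6 tested deacetylases was 0.35, and 6 of 6 were above 0 (5 of 6 with quantile normalization or median ratio scaling). Hdac5, Hdac7, Hdac8 and Hdac11 stayed below the filter.

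The sirtuins had different medians by compartment. Over the mitochondrial members Sirt3, Sirt4 and Sirt5, the median log2 fold change from fresh to vitrified was 0.71, and over the mainly nuclear Sirt1, Sirt6 and Sirt7 it was 0.01 (0.39 and -0.24 without fresh replicate 1). None of the 7 sirtuins passed the adjusted threshold in any comparison. Sirt3, the main mitochondrial deacetylase and the sirtuin with the highest mean, was listed at 3.92 and 6.97 FPKM in fresh, at 11.2, 7.94 and 14.5 in vitrified and at 5.23, 13.3 and 8.10 in melatonin libraries. Vitrified and fresh libraries did not overlap (0.93 ± 0.37, adjusted p = 0.205, and 0.58 without fresh replicate 1), and the melatonin libraries spanned both. Sirt3 exons overlap those of Psmd13 and Ric8a on the opposite strand, and without knowledge of strand use reads of these genes cannot be told apart.

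Sirt4, a mitochondrial lipoamidase and ADP-ribosyltransferase, was listed at 0.823 and 1.82 FPKM in fresh, at 2.22, 2.49 and 3.53 in vitrified and at 2.45, 2.28 and 2.27 in melatonin libraries. Both fresh libraries lay below the other 6, with log2 fold changes of 0.71 ± 0.26 (adjusted p = 0.164) and 0.56 ± 0.26 (adjusted p = 0.285). Without fresh replicate 1 these were 0.39 and 0.24. Sirt5, which removes succinyl and malonyl groups, was listed at 2.12 and 2.89 FPKM in fresh, at 2.81, 3.09 and 3.12 in vitrified and at 5.22, 1.37 and 2.17 in melatonin libraries, whose range held all others. Sirt6, a chromatin deacetylase linked to DNA repair, had the opposite pattern with 6.44 and 5.43 FPKM in fresh, 4.23, 4.64 and 3.71 in vitrified and 4.82, 4.05 and 3.74 in melatonin libraries. Its fresh libraries lay above the other 6 (-0.42 ± 0.20 in both comparisons with fresh, adjusted p = 0.279 and 0.302). Setd6, a methyltransferase of the NF-kappaB subunit RelA, was the other member with this order, which 5.22% of all genes had: 9.09 and 7.13 FPKM in fresh against 4.65 to 6.78 in the others.

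Sirt1, Sirt2 and Sirt7 overlapped between the groups in every comparison. Sirt1, a nuclear deacetylase of histones and transcription factors, was listed at 1.46 and 2.51 FPKM in fresh, at 1.73, 2.37 and 1.85 in vitrified and at 2.13, 1.74 and 2.31 in melatonin libraries. Sirt7, a nucleolar sirtuin, was listed at 2.44 and 1.53 FPKM in fresh, at 2.92, 2.76 and 1.75 in vitrified and at 2.59, 2.65 and 1.66 in melatonin libraries. Sirt2, mainly cytosolic, ranged from 4.83 to 9.75 FPKM.

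Of the acetyltransferases, Kat7, which acetylates histones H3 and H4 with its partners of the BRPF and JADE families, had the highest level. It was listed at 11.0 and 16.6 FPKM in fresh, at 19.4, 14.0 and 17.3 in vitrified and at 19.0, 20.0 and 16.5 in melatonin libraries. Its groups overlapped, and the log2 fold change from fresh to melatonin was 0.42 ± 0.22 (adjusted p = 0.339), with 0.14 and 0.70 without fresh replicates 1 and 2 in turn.

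Kat6a, a MYST acetyltransferase of histone H3, was the acetyltransferase whose vitrified libraries stood apart. It was listed at 0.916 and 1.43 FPKM in fresh, at 2.12, 2.37 and 2.14 in vitrified and at 0.939, 0.760 and 0.603 in melatonin libraries. The vitrified libraries lay above the other 5, while the melatonin libraries reached into and below the fresh range. The log2 fold change was 0.57 ± 0.22 from fresh to vitrified (adjusted p = 0.183) and -0.87 ± 0.19 from vitrified to melatonin (adjusted p = 0.121). Without fresh replicate 1 the former was 0.40. Its paralog Kat6b overlapped between the groups, with 0.574 and 1.40 FPKM in fresh, 1.30, 1.17 and 0.948 in vitrified and 0.948, 1.18 and 1.32 in melatonin libraries. The ratio of Kat6a to Kat6b was 1.60 and 1.02 in fresh, 1.63, 2.02 and 2.26 in vitrified and 0.990, 0.643 and 0.456 in melatonin libraries, an exact permutation p of 0.1 between the last 2 groups (0.5 after adjustment over the 30 tests).

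Of the other acetyltransferases, Kat2a, the enzyme of the SAGA complex, was listed at 8.32 and 9.19 FPKM in fresh, at 11.0, 9.96 and 10.2 in vitrified and at 13.5, 8.60 and 9.61 in melatonin libraries. The vitrified libraries lay above the fresh and within the melatonin range (0.23 ± 0.21 against fresh, adjusted p = 0.579). Its paralog Kat2b was listed at 1.13 and 1.04 FPKM in fresh, at 1.51, 2.00 and 0.887 in vitrified and at 2.18, 1.27 and 1.47 in melatonin libraries, the last of these above fresh. Kat5 (Tip60), which also acts in DNA repair, ranged from 3.41 to 13.2 FPKM, with -0.63 ± 0.40 after vitrification (adjusted p = 0.399) and 0.72 ± 0.35 with melatonin against vitrified (adjusted p = 0.375). Kat5 exons overlap those of Rnaseh2c on the opposite strand. Kat8, which acetylates histone H4, ranged from 5.93 to 9.55 FPKM, and its 2 fresh libraries (9.35 and 8.52) lay above the 3 melatonin libraries (7.19 to 8.31).

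The Ezh genes encode the alternative catalytic subunits of Polycomb repressive complex 2 (PRC2), which methylates lysine 27 of histone H3. EZH2 is the form of dividing cells and EZH1 that of many resting cells. Ezh1 was listed at 0.440 and 0.972 FPKM in fresh, at 2.47, 2.14 and 2.40 in vitrified and at 2.95, 1.95 and 1.99 in melatonin libraries. Ezh2 was listed at 3.13 and 5.05 FPKM in fresh, at 5.54, 5.52 and 5.66 in vitrified and at 5.13, 7.18 and 6.22 in melatonin libraries. For both genes the 2 fresh libraries lay below the other 6, an order that 8 of 50 members (16%) and 12.5% of all genes had. Among the 8, Ezh1 and Setd4 met the filter only through vitrified and melatonin libraries, so the filter favoured this order for them.

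The log2 fold change of Ezh1 was 0.99 ± 0.24 after vitrification (adjusted p = 0.0697) and 0.96 ± 0.24 with melatonin against fresh (adjusted p = 0.141). Without fresh replicate 1 these were 0.76 and 0.73. For Ezh2 the values were 0.40 ± 0.23 (adjusted p = 0.354) and 0.51 ± 0.23 (adjusted p = 0.268), and they rested on the fresh libraries. They were 0.12 and 0.24 without fresh replicate 1 and 0.67 and 0.79 without fresh replicate 2. Between melatonin and vitrified blastocysts the values were -0.03 ± 0.21 for Ezh1 and 0.12 ± 0.20 for Ezh2. The ratio of Ezh2 to Ezh1 was thus 7.11 and 5.20 in the fresh, 2.25, 2.58 and 2.36 in the vitrified and 1.74, 3.67 and 3.12 in the melatonin libraries. The fresh ratios lay above the other 6, with an exact permutation p of 0.2 in both comparisons with fresh (0.5 after adjustment over the 30 tests).

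The promoters of this pair are printed because the enzymes replace each other in PRC2 and their ratio separated fresh libraries from the rest. The Ezh1 window is chr11:101226464-101226713 and the Ezh2 window chr6:47595031-47595280, both on the minus strand (RefSeq, GRCm38.p6) and written 5′ to 3′. Capitals mark CCAAT on either strand (ATTGG on the opposite one).
Ezh1: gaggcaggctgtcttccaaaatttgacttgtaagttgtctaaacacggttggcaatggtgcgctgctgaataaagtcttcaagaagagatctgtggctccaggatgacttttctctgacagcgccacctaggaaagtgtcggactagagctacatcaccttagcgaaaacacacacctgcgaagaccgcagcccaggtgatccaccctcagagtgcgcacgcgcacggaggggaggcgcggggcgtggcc
Ezh2: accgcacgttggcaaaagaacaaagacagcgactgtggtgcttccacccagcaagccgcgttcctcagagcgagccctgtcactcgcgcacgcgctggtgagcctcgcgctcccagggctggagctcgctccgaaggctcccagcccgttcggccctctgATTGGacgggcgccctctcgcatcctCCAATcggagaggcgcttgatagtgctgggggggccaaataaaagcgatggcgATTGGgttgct
Ezh2 held CCAAT 3 times and 23 CpG, whereas Ezh1 held none of the 5 motifs searched and 14 CpG.

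The genes grouped here with the methyltransferases of lysine 4 of histone H3 (H3K4), a mark of promoters and enhancers, were mostly below the filter. Kmt2a, Kmt2d, Setd1a, Setd1b and Setd7 were not tested, which left 3 of 8 (Kmt2b, Kmt2c and Kmt2e). The grouping does not show that each has this activity. Kmt2c, which marks enhancers, had the highest mean of the Kmt family. It was listed at 0.568 and 1.79 FPKM in fresh, at 3.57, 2.78 and 2.65 in vitrified and at 2.07, 1.34 and 1.76 in melatonin libraries. The vitrified libraries lay above the other 5 (0.93 ± 0.28 against fresh, adjusted p = 0.112, and -0.56 ± 0.25 from vitrified to melatonin, adjusted p = 0.343). Against fresh, Kmt2c was at 0.52 without fresh replicate 1 and 1.34 without fresh replicate 2. Its partner paralog Kmt2d, below the filter, was listed at 0.375 and 0.109 FPKM in fresh, at 0.522, 0.694 and 0.585 in vitrified and at 0.254, 0.244 and 0.322 in melatonin libraries, with the vitrified libraries again above the rest. Setd1a was listed at 0.399 and 1.71 FPKM in fresh, at 0.550, 0.708 and 0.956 in vitrified and at 0.593, 0.721 and 0.759 in melatonin libraries. Setd1b was listed at 0.170 and 0.50 FPKM in fresh, at 0.328, 0.583 and 0.436 in vitrified and at 0.187, 0.206 and 0.300 in melatonin libraries, the last of these all below the vitrified ones.

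Setd2, the enzyme that trimethylates lysine 36 of histone H3 in transcribed genes, also had its vitrified libraries on top, as Kat6a and Kmt2c did. It was listed at 1.88 and 2.94 FPKM in fresh, at 5.28, 6.68 and 3.79 in vitrified and at 2.60, 3.36 and 2.75 in melatonin libraries. The log2 fold change was 0.87 ± 0.26 from fresh to vitrified (adjusted p = 0.109) and -0.66 ± 0.23 from vitrified to melatonin (adjusted p = 0.251). Without fresh replicate 1 the former was 0.64. In all, 7 of 50 members (14%) had every vitrified library above the other 5, against 8.03% of all genes: Hdac2, Hdac10, Kat6a, Kdm1a, Kdm4c, Kmt2c and Setd2. Of these, Hdac10 met the filter only through vitrified libraries.

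Setd3, a methyltransferase of actin, stood highest with melatonin. It was listed at 6.27 and 7.85 FPKM in fresh, at 8.51, 9.71 and 7.42 in vitrified and at 16.0, 12.5 and 10.3 in melatonin libraries. The melatonin libraries lay above the other 5, as they did for Kdm4b and for 3.86% of all genes. The log2 fold change was 0.53 ± 0.20 against vitrified (adjusted p = 0.275) and 0.78 ± 0.22 against fresh (adjusted p = 0.156). Setd8 (Kmt5a), which places the first methyl group on lysine 20 of histone H4, had the highest mean of the Setd family. Its libraries overlapped at 15.4 and 11.2 FPKM in fresh, 16.4, 12.6 and 16.1 in vitrified and 14.0, 9.07 and 13.9 in melatonin blastocysts.

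**Figure D3:**
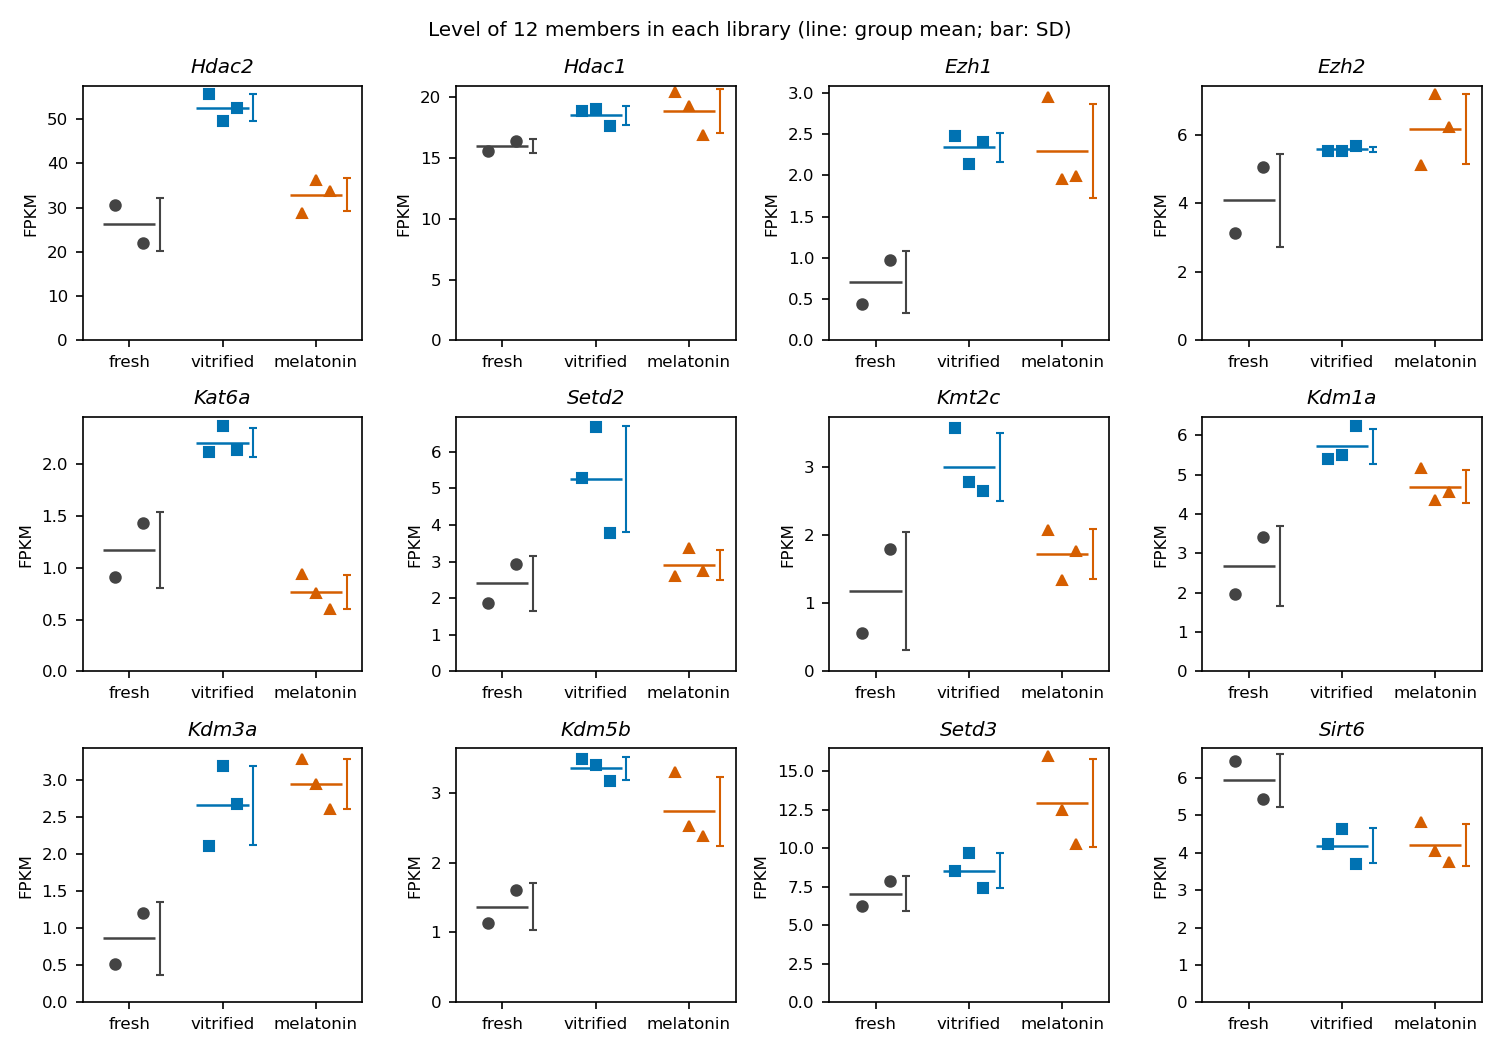
FPKM of 12 members in each library (points), with the group mean (line) and SD (bar beside the points); every axis starts at 0. Hdac2, Kat6a, Setd2, Kmt2c and Kdm1a have every vitrified library above the other 5, Ezh1, Ezh2, Hdac1, Kdm1a, Kdm3a and Kdm5b have both fresh libraries below the other 6, Setd3 has the melatonin libraries on top and Sirt6 the fresh ones.

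Of the arginine methyltransferases, Prmt5, Prmt3 and Prmt7 had high levels in all libraries. Prmt5, which dimethylates arginine symmetrically and is needed by pluripotent cells of the embryo, was listed at 20.9 and 29.4 FPKM in fresh, between 26.0 and 28.1 in the vitrified libraries and at 28.9, 34.8 and 26.4 in melatonin libraries. Its groups overlapped, with log2 fold changes of 0.12 ± 0.19 after vitrification (adjusted p = 0.77) and 0.26 ± 0.19 with melatonin against fresh (adjusted p = 0.495). Prmt3, a cytosolic enzyme that methylates a ribosomal protein, ranged from 21.5 to 26.0 FPKM and Prmt7, which monomethylates arginine, from 17.9 to 25.1.

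Prmt10 (Prmt9) was listed at 1.30 and 3.14 FPKM in fresh, at 4.31, 3.60 and 4.31 in vitrified and at 2.52, 4.23 and 2.82 in melatonin libraries. Vitrified and fresh libraries did not overlap (0.71 ± 0.29, adjusted p = 0.207, and 0.29 without fresh replicate 1 or 1.14 without fresh replicate 2). Prmt1, the main enzyme of asymmetric dimethylation, varied widely, with 3.16 and 1.14 FPKM in fresh, 1.36, 0.856 and 1.43 in vitrified and 0.617, 7.74 and 5.41 in melatonin libraries. The melatonin group alone spanned all other libraries, and no comparison passed the test (1.03 ± 0.55 against vitrified, adjusted p = 0.41, and 1.77 or 0.55 without melatonin replicate 1 or 2). The Ensembl identifier given for Prmt1 had no match in the annotation used, so its length and position were not taken. The median log2 fold change of the 7 Prmt genes after vitrification was -0.00, beside 0.14 over all genes.

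The demethylases had a median log2 fold change of 0.46 from fresh to vitrified blastocysts over 12 tested members, of which 11 were above 0 (8 with quantile normalization and 10 with median ratio scaling). This median rested on the fresh libraries: it was 0.14, with 7 of 12 above 0, without fresh replicate 1, and 0.92 without fresh replicate 2. The 4 demethylases of H3K4 had a median of 0.61 and the 5 of H3K9 one of 0.63 (0.42 and 0.67 without fresh replicate 1, 0.92 and 1.08 without fresh replicate 2). The 5 of H3K36, some of which also act on H3K9, had a median of 0.32. It was 0.05 without fresh replicate 1 and 0.47 without fresh replicate 2. No demethylase passed the adjusted threshold of 0.05. At an adjusted p below 0.1 there were 3, among 5 of 50 members and 6.38% of all genes.

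Kdm1a (LSD1), the flavin-dependent demethylase of H3K4 in the CoREST complex with HDAC1 and HDAC2, was listed at 1.97 and 3.41 FPKM in fresh, at 5.41, 5.51 and 6.24 in vitrified and at 5.17, 4.37 and 4.56 in melatonin libraries. The 3 groups did not overlap at all, with the melatonin libraries between the others. The log2 fold change was 0.89 ± 0.22 after vitrification (adjusted p = 0.0732) and 0.65 ± 0.22 with melatonin against fresh (adjusted p = 0.188). Without fresh replicate 1 these were 0.61 and 0.37. Its paralog Kdm1b, known from imprinting in the oocyte, was listed at 0.701 and 0.777 FPKM in fresh, at 1.08, 0.758 and 1.45 in vitrified and at 1.17, 0.673 and 0.896 in melatonin libraries, with overlap between all groups.

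Kdm5b, a JmjC-domain demethylase of H3K4, was listed at 1.13 and 1.61 FPKM in fresh, at 3.48, 3.40 and 3.16 in vitrified and at 3.30, 2.52 and 2.38 in melatonin libraries. Both fresh libraries lay below the other 6, and melatonin and vitrified libraries overlapped. The log2 fold change was 0.88 ± 0.21 after vitrification (adjusted p = 0.0698) and 0.65 ± 0.21 with melatonin against fresh (adjusted p = 0.176). Without fresh replicate 1 these were 0.73 and 0.51. Kdm5a, of the same subfamily, ranged from 2.68 to 7.49 FPKM with overlapping groups.

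Kdm3a, a demethylase of H3K9, was listed at 0.513 and 1.21 FPKM in fresh, at 2.11, 3.18 and 2.67 in vitrified and at 3.28, 2.94 and 2.60 in melatonin libraries. The fresh libraries again lay below the other 6, and the log2 fold changes against fresh were 0.99 ± 0.24 (adjusted p = 0.0725) and 1.10 ± 0.24 (adjusted p = 0.128). Without fresh replicate 1 these were 0.71 and 0.83. Kdm3b, its paralog and the member of the family with the highest mean, was listed at 2.94 and 9.96 FPKM in fresh, at 7.39, 7.60 and 6.99 in vitrified and at 10.1, 6.53 and 9.02 in melatonin libraries. The 2 fresh libraries of Kdm3b enclosed all vitrified ones, and its log2 fold change after vitrification was 0.34 ± 0.37 with both of them, -0.40 without fresh replicate 1 and 1.08 without fresh replicate 2.

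The Kdm4 genes, which encode demethylases of H3K9 and H3K36, each had another order. Kdm4a was listed at 1.32 and 0.881 FPKM in fresh, at 2.72, 2.64 and 1.47 in vitrified and at 1.48, 0.482 and 1.00 in melatonin libraries. The vitrified libraries lay above fresh and overlapped with melatonin at their edge (-0.73 ± 0.26 from vitrified to melatonin, adjusted p = 0.257). Kdm4c was 3.15 to 4.77 FPKM in the vitrified libraries and 1.24 to 2.93 in the other 5. Kdm4b was 0.923 to 1.29 FPKM in the melatonin libraries and 0.140 to 0.895 in the other 5, so it met the filter only through melatonin libraries. Kdm6b, a demethylase of H3K27, ranged from 0.936 to 4.81 FPKM, and its exons overlap those of Kdm6bos, an antisense RNA below the filter. Kdm8 ranged from 0.965 to 5.72 FPKM, and its fresh libraries, at 1.06 and 5.72, differed more than its groups.

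The difference between the 2 fresh libraries was larger for long transcripts. All 12 tested members with an annotated transcript of 6 kb or more were lower in fresh replicate 1 than in fresh replicate 2, with a median difference of -0.53 in log2(FPKM + 1). Over all genes of that length, 81.1% were lower, with a median of -0.42. Of members of 4 to 6 kb, 8 of 10 were lower (80%, against 75.3% of all genes of that length). Of those under 4 kb, 16 of 27 were lower (59.3%, against 53.2%). Spearman's rho between length and this difference was -0.35 over 49 members and -0.32 over 10713 genes, which come from the same 2 libraries and are not independent replicates.

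The comparison with fresh differed by length as well. The median log2 fold change of the 12 long members after vitrification was 0.34 with both fresh libraries and -0.04 without fresh replicate 1, while over all genes of that length it was 0.24 and 0.05. For members of 4 to 6 kb it was 0.37 and 0.23 (all genes 0.22 and 0.07), and for those under 4 kb 0.20 and 0.16 (all genes 0.10 and 0.08). Among members named above, Kmt2c (14967 bases), Kdm5b (8714), Setd2 (8350) and Kat6a (9113) are long, whereas Hdac2 (3250), Ezh1 (4207), Kdm1a (3028) and Kdm3a (4853) are not. Neither the length of the transcripts nor the level of epiblast or primitive endoderm markers was tested for its part in the differences.

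**Figure D4:**
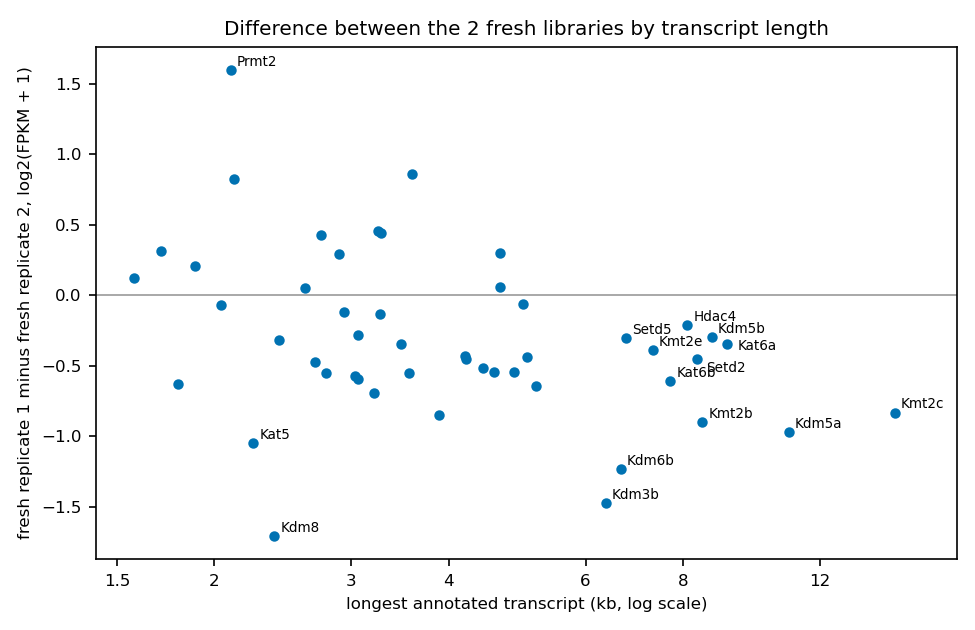
Difference between the 2 fresh libraries in log2(FPKM + 1) for 49 tested members against the length of their longest annotated transcript (kb, log axis). All 12 members of 6 kb or more lie below 0, and members under 4 kb lie on both sides.

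A list of 100 genes outside the families, called partners here, held subunits of their complexes and further histone modifying enzymes. Of these, 93 were in the table and 76 were tested, among them 15 other histone methyltransferases and 2 other demethylases. No partner passed the adjusted threshold in any comparison. At an unadjusted p below 0.05, 7 partners were higher after vitrification (9.21%, against 15.6% of all genes) and 0 lower (against 4.56%). Of the 7, 3 were among the 15 other histone methyltransferases (20% of these, against 15.6% of all genes). With melatonin against vitrified, 3 were higher (3.95%, against 4.59%) and 7 lower (9.21%, against 10.2%). With melatonin against fresh, 5 were higher (6.58%, against 11.6%) and 1 lower (1.32%, against 6.82%). Each of the shares over all 76 tested partners was below that of all genes, while some single lists lay above it. The median log2 fold changes were 0.19, -0.04 and 0.11, beside 0.14, -0.05 and 0.09 over all genes. The 21 tested partners of the Sin3, NuRD, CoREST and NCoR complexes, which hold HDAC1, HDAC2 or HDAC3, had a median of 0.08 after vitrification, and the 6 of PRC2 one of 0.24. The smallest p belonged to Ncor1, a scaffold of the HDAC3 complex, after vitrification (0.64 ± 0.21, adjusted p = 0.132). With melatonin it belonged to Taf1, a subunit of TFIID, against vitrified (-0.88 ± 0.28, adjusted p = 0.225) and to Mta2, a subunit of NuRD, against fresh (0.97 ± 0.35, adjusted p = 0.206).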

How the data were processed

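RNA sequencing of 8 mouse blastocyst libraries was deposited by the authors as 1 table of FPKM per gene, on build mm10 per the submitters' processing notes. For the aligner, counting tool, annotation and strand setting, a name was not given in the sources used here. As for the method, the series description names Smart-seq2, while the sample protocol describes TRIzol extraction, poly(A) selection and strand marking by dUTP. The library method therefore remains unknown. Fragments per library were estimated from the steps between low FPKM values, of which 94.7% to 96.7% were whole within 0.1. The limma package (3.58.1, R 4.3.3) fitted log2(FPKM + 1) in all 8 libraries with a variance trend, for the 10755 genes with at least 1 FPKM in at least 2 libraries, with Benjamini-Hochberg adjustment over all of them (two-sided, threshold 0.05). A fold change on this scale understates the change of low genes. Ratios of paralogs were compared with exact two-sided permutation tests. Positions and lengths come from the GENCODE annotation of GRCm38 (62 of 63 members matched by Ensembl identifier), and 28 members overlap exons of another gene. Promoters come from RefSeq. The model was tested on simulated data. Tables and plots used Python 3.11.15.

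The members, enzyme classes, partner genes and markers were chosen with earlier results of these data known. Values per library are given for members that passed, for the highest member of each family, for the smallest p in each family and comparison, and for fixed pairs of paralogs. Other members named were chosen after their values were seen. Settings tried were 2 other normalizations, other filters and pseudocounts, no variance trend, library weights, a replicate block, a covariate for Y-linked transcripts, other thresholds and the removal of each library.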

Additional observations from a re-analysis of the deposited data

How the results depend on the processing

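The 1 member called after vitrification was called by limma also with a mean of at least 5 FPKM and with a pseudocount of 0.1. The count was 5 at an adjusted p below 0.1 (Ezh1, Hdac2, Kdm1a, Kdm3a and Kdm5b), or 5 of 50 members beside 6.38% of all genes. It was 0 with a log2 fold change of at least 1, median ratio scaling, quantile normalization, no variance trend and no filter. It was also 0 with the replicate block, library weights and only the groups compared. Leaving out each library gave 0 to 4, the 4 being Ezh1, Kdm1a, Kdm3a and Kmt2c without fresh replicate 2, where 4.08% of all genes were called. Between melatonin and vitrified blastocysts, library weights called 2 members lower, Hdac2 and Kat6a, beside 2.17% of all genes. Between melatonin and fresh, leaving out libraries gave 0 to 4, the 4 being Ezh1, Kdm1a, Kdm3a and Kdm3b without fresh replicate 2, where 5.32% of all genes were called. The cause was not tested. Quantile normalization took the median of members after vitrification from 0.24 to 0.05 and that of all genes from 0.14 to -0.02, so fold changes are best read against the median of all genes, and 28 rather than 40 of 50 members were then above 0. The median with melatonin against vitrified became 0.04 with quantile normalization, 0.04 with a mean of at least 5 FPKM, and -0.14 to 0.01 when libraries were left out. Of 429 family medians under other settings, 26 had another sign than the main value. Of 1507 values of named members none was called in the opposite direction, 16 lost and 10 gained a call, and 73 without a call moved by more than the standard error of the main value, for example Kdm3b after vitrification from 0.34 to -0.40 without fresh replicate 1. The labels state no pairing by replicate number. In their deviation from the group mean, same-numbered libraries correlated at -0.115 to 0.121, and those that share a number in their title at -0.115 to 0.0392. Deviations within groups of 2 or 3 libraries depend on each other, so these values cannot exclude a shared batch.

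At 11.7 fragments per FPKM of a 2 kb transcript, members near 1 FPKM rest on few fragments, and groups of 2 and 3 libraries are too small for a test of single libraries that stand apart.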
